A study of Mus musculus with 2 samples.

Results

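Beta2 tanycytes are the tanycytes of the ventricle floor at the median eminence, and they made up 1907 of the 22285 cells profiled. They were taken as every cell that the authors' deposited annotation names as beta2, which gave 904 of 8948 cells in the control library and 1003 of 13337 cells in the Nfia/b/x-deficient library. Accessibility of chromatin was measured by single-cell ATAC-seq, in which the Tn5 transposase cuts open DNA in single nuclei. GFP-positive cells were sorted for both libraries from the mediobasal hypothalamus of mice on postnatal day 8. Control mice carried Rax-CreER and the reporter CAG-lsl-Sun1-GFP, and deficient mice carried these same alleles together with floxed Nfia, Nfib and Nfix. Rax-CreER places the recombinase in Rax-expressing cells, so the reporter labels tanycytes and cells that later arise from them, and the time of induction is not given in the labels of these 2 libraries. Each genotype had 1 library, and how many animals were behind it is not stated in the labels.

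Tanycytes line the walls and floor of the third ventricle and keep features of the radial glia of the embryonic brain. Those called beta2 sit over the median eminence, where their long processes reach the portal capillaries and their tight junctions help to separate the cerebrospinal fluid from the blood side. They are known for transport of hormonal signals and for control of hormone release at nerve terminals in the median eminence. Rax, a homeobox transcription factor, marks tanycytes as a class, and Scn7a, Adm and Col25a1 are markers of the beta2 subtype. NFIA, NFIB and NFIX are transcription factors of the nuclear factor I family, known for promoting the glial state in the developing brain.

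The deposited matrix states which of 107377 regions was found in which cell, without a count of fragments, and each such entry is called a detection here. The regions carry only a number, with neither gene nor position. Accessibility at Rax, Scn7a, Adm, Col25a1 and the Nfi genes was therefore not analysed here, no sequence is shown, and the label beta2 could not be checked against its marker genes. Control beta2 cells gave 4917235 detections and deficient ones 4524079. A control beta2 cell had from 1039 to 19205 detections with a median of 4814.5, and a deficient one had from 1025 to 12961 with a median of 4049. Deficient beta2 cells were thus shallower, as were all cells of that library (median 4042 against 4549.5). Of all barcodes, 204 were found in both libraries, and they included 27 control and 14 deficient beta2 cells but no barcode that was beta2 in both. With 1 library per genotype there was no test between genotypes, and every interval below is an exact 95% interval for counting error, which leaves out the spread between cells and between animals.

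Beta2 cells formed a class that could be told from its neighbours by its regions alone. Each cell was assigned to the type whose profile, built from other cells of its own library, gave it the highest likelihood. In the control library 801 of 904 beta2 cells (88.6%, 86.4 to 90.6%) were assigned to beta2, and in the deficient library 887 of 1003 (88.4%, 86.3 to 90.3%). In the control library only alpha2 tanycytes had a higher share assigned to their own type (92.1%), and in the deficient library none did. Types with few cells had profiles built from few cells, and many of their cells went to alpha2, the most numerous type. Among controls these were 60 of 63 proliferating and 99 of 133 ependymal cells, and among deficient cells 438 of 1033 and 83 of 265. The part of cell number in this ranking was not tested. Of the remaining control beta2 cells 66 went to alpha2 and 37 to beta1 tanycytes. Of the remaining deficient ones 55 went to alpha2, 60 to beta1 and 1 to neurons, and no beta2 cell of either library went to alpha1 tanycytes, astrocytes, ependymal cells or oligodendrocyte precursor cells (OPCs). The cells that left the class were deeper than those that stayed, with a median of 7580 against 4538 detections in the control and 6478 against 3852 in the deficient library, and the part of depth in the reassignment was not tested. In the other direction, beta1 tanycytes were the type most often assigned to beta2, with 5.71% of control and 5.80% of deficient beta1 cells. The types were named by the authors on these same cells, so this is a description and not a test of the class.

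Relative to the other tanycyte subtypes, beta2 cells were fewer in the deficient library, but not relative to alpha2 cells, and the size of the gap depended on the subtype used for comparison. There were 14.3 beta2 cells per 100 alpha1, alpha2 and beta1 cells among controls and 12.5 among deficient cells, a ratio of 0.877 (0.796 to 0.966). With cells reassigned to their nearest profile the values were 14.6 and 13.5, a log2 ratio of -0.12 in place of -0.19. Per 100 beta1 cells, the adjoining class, the values were 58.0 and 41.0, a ratio of 0.706 (0.632 to 0.790). Per 100 alpha1 cells they were 191 and 150, a ratio of 0.784 (0.674 to 0.912). Per 100 alpha2 cells they were 21.0 and 20.5, and the interval of that ratio included 1 (0.975, 0.882 to 1.08). Beta2 and alpha2 cells therefore stood in about the same proportion in both libraries, while beta1 and alpha1 cells were more numerous per beta2 cell in the deficient one. Proliferating tanycytes were left out because 1033 of 1096 came from the deficient library. The sort and the authors' naming set which cells could enter these ratios.

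Most regions were rare in single beta2 cells, and a small part of them held much of the signal. A region was found in a median of 2.21% of control and 1.99% of deficient beta2 cells. More than 50% of control beta2 cells showed 38 regions, and the shallower deficient cells 6. The most widely open region, number 43752, singled out after its values were seen, was found in 95.5% of control and 92.6% of deficient beta2 cells and also led all 8 other types in both libraries. The 12478 most accessible regions (11.6% of all) held 50% of control beta2 detections, and 12903 (12.02%) did so in the deficient library. Since presence saturates at 1 per cell, differences in widely open regions are understated.

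A core of regions distinguished beta2 cells in both libraries. Levels were taken as detections per 1000000 detections of a type and library, and log2 ratios used a pseudocount of 1 on that scale over regions with at least 50 detections. Compared with all other cells, 6116 of 107274 regions were higher in beta2 cells by 2-fold or more among control cells (5.7%), and 7056 among deficient ones (6.58%). Lower by 2-fold or more were 11660 control regions (10.9%) and 11477 deficient ones (10.7%). The minimum of 50 counted beta2 and other cells together, and beta2 cells held 4917235 of 50973118 control detections. A lower region could thus pass it through the other cells alone, so the numbers of lower and higher regions cannot be set against each other. Of the regions that could be compared in both, 4564 were higher in both, which is 74.7% of the control list and 64.7% of the deficient list. Lower in both were 6051, which is 52.0% and 52.8%. No region passed 2-fold in opposite directions in the 2 libraries. The shared higher regions were found in a median of 4.98% of control beta2 cells against 1.45% of other control cells. The shared lower regions were found in a median of 0.774% of beta2 and 3.12% of other cells, and 50 of them were not found in any beta2 cell.

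The other type in which a shared higher region was most accessible differed from region to region. In the control library, leaving out the small proliferating class, it was beta1 tanycytes for 1971 of the 4564 regions and ependymal cells for 1067. It was alpha2 tanycytes, the most numerous type, for 119 regions. The shared lower regions had no such leading type: alpha1 tanycytes were highest for 1218 of 6051, neurons for 1187, OPCs for 1056, ependymal cells for 1022, astrocytes for 901, alpha2 for 400 and beta1 tanycytes for 267. How often each type leads over all tested regions was not counted. These numbers therefore describe the 2 lists and cannot be read as a trait of them. Types with few cells have the widest counting error and so are more easily the highest for a single region. Taken alone, alpha2 cells gave 6239 higher (6.59%) and 10398 lower regions (11%) for control beta2 cells, and 6578 (6.94%) and 9895 (10.4%) for deficient ones. Alpha1 cells gave 3996 higher (10.7%) and 3235 lower regions (8.66%) for control beta2 cells, and 3853 (9.83%) and 3484 (8.89%) for deficient ones. These shares are not comparable between subtypes of unequal depth. Against each of alpha1, alpha2 and beta1 cells at the same time and in both libraries, 638 of 33419 regions (1.91%) were 2-fold or more higher in beta2 cells and 512 (1.53%) were 2-fold or more lower.

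The regions with the most extreme values show the size of the contrast in single cells. Region 97468 was found in 161 of 904 control and 116 of 1003 deficient beta2 cells, or 32.7 (27.9 to 38.2) and 25.6 (21.2 to 30.8) detections per 1000000. In all other cells it was at 3.71 and 1.77 per 1000000, a log2 ratio of beta2 to other cells of 2.84 (control) and 3.27 (deficient). Region 29764 was found in 111 control and 106 deficient beta2 cells, at 22.6 (18.6 to 27.2) and 23.4 (19.2 to 28.3) per 1000000, against 2.37 and 1.82 in all other cells (log2 ratios 2.81 and 3.12). Both regions were highest in beta2 cells in each library, and the intervals of beta2 cells did not overlap those of any other type of the same library. They were picked as the most extreme regions in these same cells. Their rank and the gap between the intervals therefore follow largely from that choice and are a description only.

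At the other end stood regions that were rarely found in beta2 cells. Region 61085 was found in 16 control and 7 deficient beta2 cells, at 3.25 (1.86 to 5.28) and 1.55 (0.622 to 3.19) per 1000000, against 21.5 and 12.5 in all other cells. Its level was highest in astrocytes, at 38.2 and 48.6 per 1000000, with intervals that overlapped that of OPCs in both libraries. Among controls the interval of astrocytes also overlapped those of alpha1 tanycytes, at 32.9 (25.9 to 41.2), and of proliferating cells. Region 90813 was found in 0 of 904 control beta2 cells, where 3 cells, or 0.332%, is the floor taken for a count of 0, and in 1 of 1003 deficient ones, against 207 of 8044 and 288 of 12334 other cells. Such a floor bears on cells with a detection and not on cells in which the region is open. Region 90813 was highest in ependymal cells, at 8.52 and 7.26 per 1000000, from 8 and 9 cells. Regions 61085 and 90813 both met the minimum of 200 detections for a named region through the other cells alone. The log2 ratio of beta2 to all other cells by which region 90813 was picked was -2.31. With a pseudocount of 5 this ratio was -0.93, short of 2-fold, so its size depended on the pseudocount. Beta2 cells had the lowest level of all 9 types for both of these regions in both libraries, although for region 90813 the intervals overlapped those of types with few cells. These regions too were picked in the same cells, so their rank follows largely from that choice.

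To compare levels without reusing the cells that chose the regions, 500 beta2 regions were chosen in alternate cells of each type and library and measured in the remaining cells. A region needed 20 or more detections in the choosing beta2 cells of the control library and also in those of the deficient library. Such regions were ranked by the smaller of the 2 log2 ratios to all other cells, so that both genotypes weighed on the choice. The last regions inside the set had a ranking value of 1.69 and the first outside it also 1.69, so the set has no natural edge; 4882 regions met its minimum. Measured were 452 control and 501 deficient beta2 cells. All 500 regions were above all other cells in both libraries, and beta2 was the highest type, proliferating tanycytes left out, for 490 control and 489 deficient regions. Being chosen in cells of the same libraries, they describe beta2 cells and do not test the class.

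Per 1000 detections, control beta2 cells had 8.09 (7.98 to 8.20) in the 500 beta2 regions and deficient ones 7.76 (7.64 to 7.87), while they are 0.466% of all regions. Beta1 tanycytes came next with 2.61 (2.55 to 2.66) and 2.42 (2.38 to 2.46), so beta2 cells were 3.10 and 3.21 times higher than the adjoining subtype. Ependymal cells, which carry the cilia that move the fluid of the ventricle, followed with 1.96 (1.84 to 2.09) and 1.88 (1.77 to 1.99). Alpha2 tanycytes had 1.71 (1.68 to 1.73) and 1.38 (1.36 to 1.40), and alpha1 tanycytes 1.30 (1.23 to 1.37) and 1.12 (1.07 to 1.18). Among the tanycytes the level summed over cells thus stepped down from beta2 to beta1, alpha2 and alpha1 in both libraries. The last step was not seen in medians: in cells thinned to an equal number of detections, alpha2 and alpha1 cells both had 2. Their means kept the order, at 2.65 and 2.48 among control and 2.64 and 2.18 among deficient cells. No such detection was found in 20.7% of control alpha2 and 13.1% of control alpha1 cells, and in 14.5% and 13.7% of deficient ones. Summed over cells and per 1000 detections, neurons had 1.24 and 1.13, astrocytes 1.23 and 1.01, and OPCs 1.01 and 1.05. The intervals of neurons and astrocytes overlapped that of alpha1 tanycytes in both libraries, as did that of OPCs in the deficient one. In single beta2 regions the median log2 ratio to beta1 cells was 1.53 (control) and 1.56 (deficient), that to alpha2 cells 1.95 and 2.13 and that to alpha1 cells 2.38 and 2.44.

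**Figure D1:**
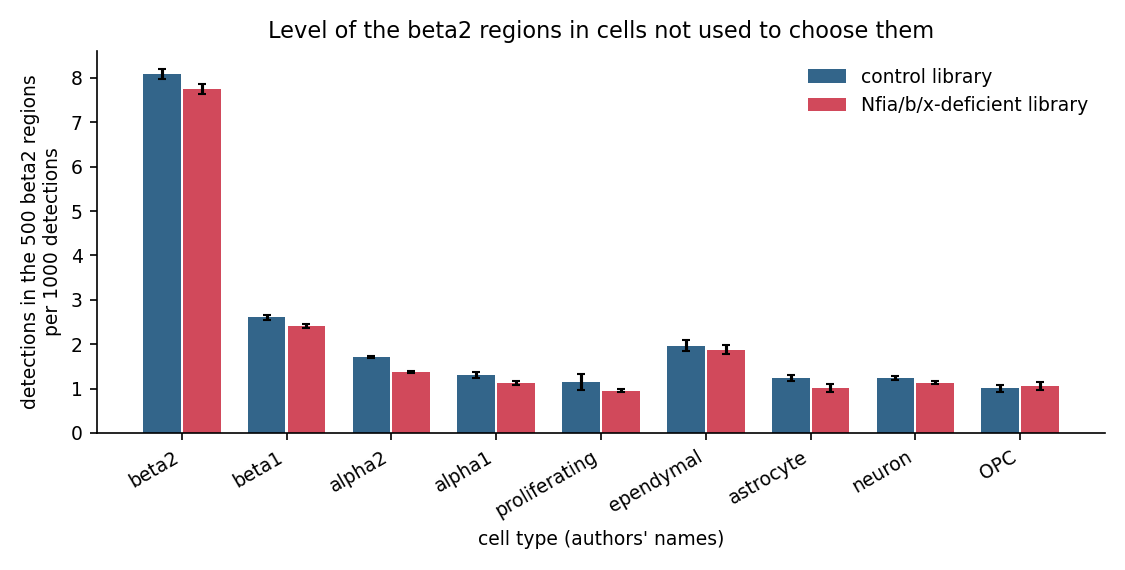
Detections in the 500 beta2 regions per 1000 detections (vertical axis) in each cell type (horizontal axis), measured in cells not used to choose the regions, with bars for the control and the Nfia/b/x-deficient library and exact 95% Poisson intervals for counting error. Beta2 cells stand at 8.09 and 7.76, and beta1 cells follow at 2.61 and 2.42.

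The subtype closest to beta2 tanycytes was beta1 also when single regions were compared with each type thinned to 2000000 detections. In the control library 2-fold differences from beta1 cells made up 6.92% of 23221 regions, against 10.8% for alpha2, 14.1% for alpha1 tanycytes and 19.3% for neurons. In the deficient library the shares were 6.84%, 9.86%, 12.9% and 15.2% in the same order, and 14.2% for proliferating tanycytes. Regions lower in beta2 cells outnumbered higher ones against beta1 (942 and 664 regions for control, 869 and 669 for deficient cells) and against alpha1 cells (1892 and 1369, 1638 and 1246). Against alpha2 cells the directions were nearly balanced (1252 lower and 1249 higher, 1092 and 1108), and against neurons more were higher (1750 lower and 2583 higher, 1558 and 1779). The other types had too few detections in the control library to be compared at this depth.

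Using all detections, 2261 of 54763 regions were 2-fold or more higher in beta2 than in beta1 cells of the control library (4.13%) and 3702 were lower (6.76%). In the deficient library 2661 of 64347 were higher (4.14%) and 5027 lower (7.81%). Of the regions tested in both libraries 1182 were higher in both, which is 60.2% of the control and 56.7% of the deficient list, and 2098 were lower in both (63.1% and 59.6%). With at least 200 detections required in place of 50, 138 higher and 472 lower regions were left in the control library, and 172 and 730 in the deficient library. Lower regions outnumbered higher ones under each choice tried, but the minimum counted beta2 and beta1 cells together. Beta1 cells held 7319566 control and 9762249 deficient detections, against 4917235 and 4524079 in beta2 cells. A lower region could thus pass the minimum through beta1 cells alone, so these numbers cannot be set against each other. At the equal depth described above, lower regions were also the more numerous.

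Region 40273 had one of the 2 strongest differences in favour of beta2 cells. It was at 29.5 (24.9 to 34.7) per 1000000 in control and 27.9 (23.2 to 33.2) in deficient beta2 cells, against 3.83 (2.54 to 5.53) and 2.66 (1.74 to 3.90) in beta1 cells. Region 51877 was at 17.5 (14.0 to 21.6) and 20.8 (16.8 to 25.4) in beta2 cells, against 1.23 (0.562 to 2.33) and 2.46 (1.58 to 3.66) in beta1 cells. In alpha1 and alpha2 cells the picture was as in beta1 cells: both regions were at or below 3.63 per 1000000 in either library.

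In the opposite direction, region 40905 was at 2.24 (1.12 to 4.00) per 1000000 in control and 1.33 (0.487 to 2.89) in deficient beta2 cells, against 21.3 (18.1 to 24.9) and 14.2 (11.97 to 16.8) in beta1 cells, the type with its highest level in both libraries. Region 61127 was at 7.93 (5.64 to 10.8) and 7.74 (5.39 to 10.8) in beta2 cells, against 53.0 (47.9 to 58.6) and 53.6 (49.1 to 58.4) in beta1 cells. It was high in alpha2 cells as well, at 40.04 and 39.8, and in alpha1 cells, at 51.1 and 56.8. Region 61127 was thus open across the other tanycyte subtypes and low in beta2 cells, while region 40905 was led by beta1 cells.

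Regions chosen in the same way for the other types showed what beta2 cells had little of. Of all 9 types, beta2 cells had the lowest level of neuron, astrocyte, OPC and alpha2 regions in both libraries. Per 1000 detections, neuron regions took 0.619 in control beta2 cells and 0.915 in deficient ones, against 9.33 and 6.93 in neurons. Astrocyte regions took 4.62 and 3.90, against 11.2 and 10.4 in astrocytes. OPC regions took 7.67 and 7.26, against 22.5 and 22.1 in OPCs, and alpha2 regions took 1.55 and 1.63, against 4.22 and 4.45 in alpha2 tanycytes. The set that beta2 cells shared most with its owner was that of beta1 tanycytes, at 4.25 in control and 3.96 in deficient beta2 cells against 6.16 and 5.14 in beta1 cells, and beta2 cells were the second highest type for it. Only 3 of the 500 beta1 regions were also beta2 regions, and none of the regions of the other types was.

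Single beta2 cells varied in how many beta2 regions they showed, and the lower end of their range met the upper end of beta1 cells. Measured cells with at least 2000 detections were thinned to that number, which left 430 control and 456 deficient beta2 cells and left out 22 and 45 shallower ones. A control beta2 cell had a median of 17 detections in the 500 beta2 regions, with 5% of cells at or below 7.45 and 5% at or above 28, from a lowest of 3 to a highest of 37. A deficient beta2 cell had a median of 16, with 5% at or below 8.0 and 5% at or above 25, from 2 to 35. The variance was 2.05 times the mean in the control and 1.87 times in the deficient library, so beta2 cells differed by more than a Poisson count of 1 common level. Unthinned, the medians were 40 and 32 detections at median depths of 4793 and 4002.

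Beta1 cells had a median of 4 detections in both libraries, alpha2 and alpha1 cells 2, and neurons, which should lack beta2 regions, also 2. Of control beta2 cells 27.9% (23.7 to 32.4%) were at or below the level that 95% of beta1 cells did not exceed, and 28.3% (24.2 to 32.7%) of deficient ones. Against alpha2 cells the shares were 10.9% (8.14 to 14.3%) and 8.11% (5.78 to 11.0%), and against alpha1 cells 2.79% (1.45 to 4.82%) and 1.10% (0.357 to 2.54%). Conversely 13 of 712 control and 22 of 1063 deficient beta1 cells reached the median of beta2 cells. So did 7 of 2011 control and 13 of 2289 deficient alpha2 cells, and 0 alpha1 cells. The overlap of beta2 cells was therefore widest with beta1, narrower with alpha2 and narrowest with alpha1 cells in both libraries. For beta1 regions the median was 8 in beta2 cells of both libraries. For neuron regions the median was 1 in both, and 35.1% of control and 21.9% of deficient beta2 cells had none.

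**Figure D2:**
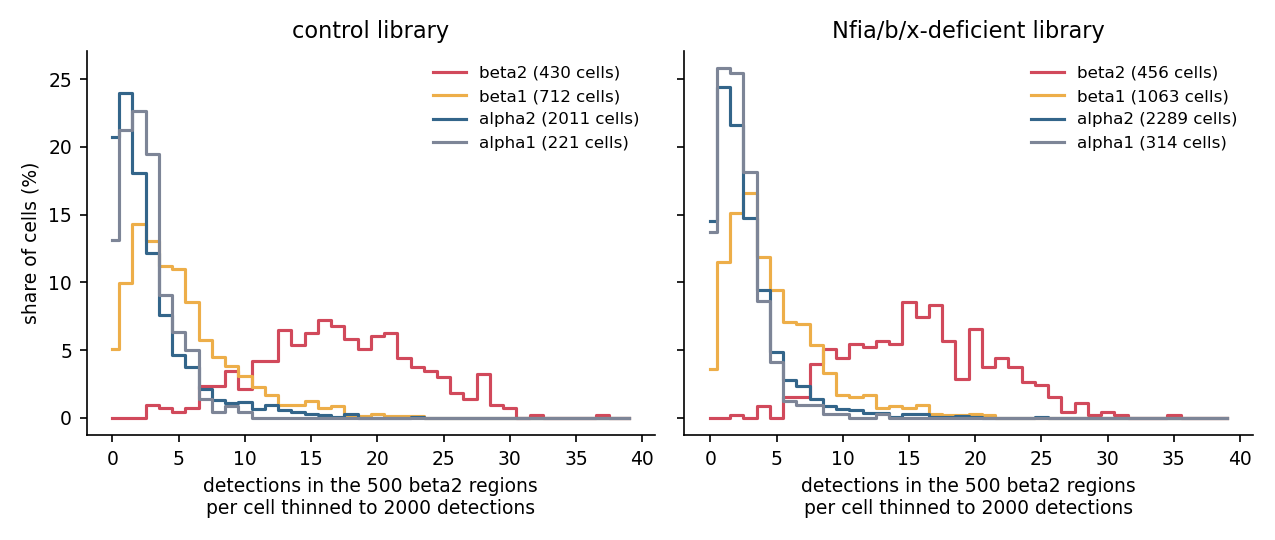
Share of cells (vertical axis, percent) by the number of detections in the 500 beta2 regions per cell thinned to 2000 detections (horizontal axis), for beta2, beta1, alpha2 and alpha1 tanycytes of the control library (left) and the Nfia/b/x-deficient library (right). Beta2 cells spread around a median of 17 and 16, and the upper tail of beta1 cells, with a median of 4, reaches into them.

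The beta2 regions lay near other regions open in beta2 cells in the numbering of the matrix. Of regions directly next to a beta2 region, and not in the set themselves, 13.9% were 2-fold or more higher in beta2 than in all other measured cells in each library, against 5.49% of all control and 6.2% of all deficient regions. At a distance of 3 the shares were 10.1% in each library, at 10 they were 7.04% and 7.62%, and at 100 they were 4.33% and 5.26%. The excess was smaller at larger distances and was within 1 percentage point of all regions at a distance of 20 (5.68% and 5.54%), with 6.67% and 7.48% at 50. Of the 500 regions 15 (3%) had another beta2 region as a direct neighbour, in 7 runs, of which the longest held 3 regions. Of all regions, 0.928% were a direct neighbour of a beta2 region. Such neighbours were not particular to the beta2 set. Their share was 6.2% in the alpha1, 5.2% in the beta1 and OPC and 3.6% in the neuron set. It was 1.6% in the alpha2, 1.56% in the astrocyte and 0% in the ependymal set. Whether the numbering follows the genome is not stated in the files, and whether single fragments reached across adjoining regions was not tested.

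**Figure D3:**
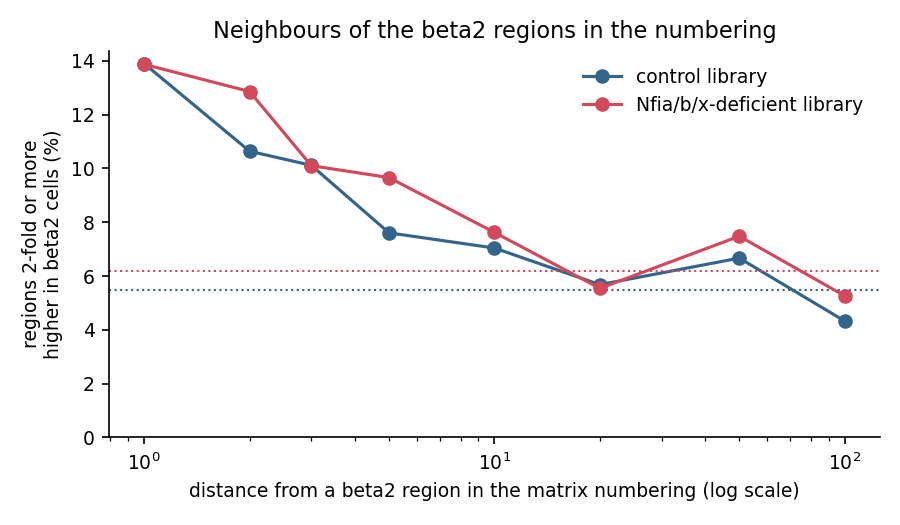
Share of regions that were 2-fold or more higher in beta2 than in all other measured cells (vertical axis, percent) by their distance from the nearest-numbered beta2 regions (horizontal axis, log scale), with dotted lines for all regions of each library. The share falls from 13.9% next to a beta2 region to 5.68% and 5.54% at a distance of 20.

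Between the genotypes, regions past 2-fold in beta2 cells were mostly less accessible in the deficient library. With 1 library per genotype, genotype cannot be told apart from any other difference between the libraries, such as depth. The effect of losing NFIA, NFIB and NFIX was therefore not tested. Of 46195 regions with at least 50 detections in beta2 cells, 1326 were lower (2.87%) and 479 higher (1.04%), and the log2 ratio (deficient over control) had a median of 0.0078, close to 0. The lower regions were found in a median of 62 control and 20 deficient beta2 cells, and the higher ones in a median of 19 and 46. Among regions with 200 or more detections, where counting error is smaller, 68 of 13890 were lower and 2 were higher. Among those with 50 to 99 detections 4.17% were lower and 2.11% higher, and among those with 100 to 199 detections 3.45% and 0.434%. With no minimum 3632 regions were higher and 3321 lower, so the excess of lower regions was not seen once regions of few detections were let in.

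**Figure D4:**
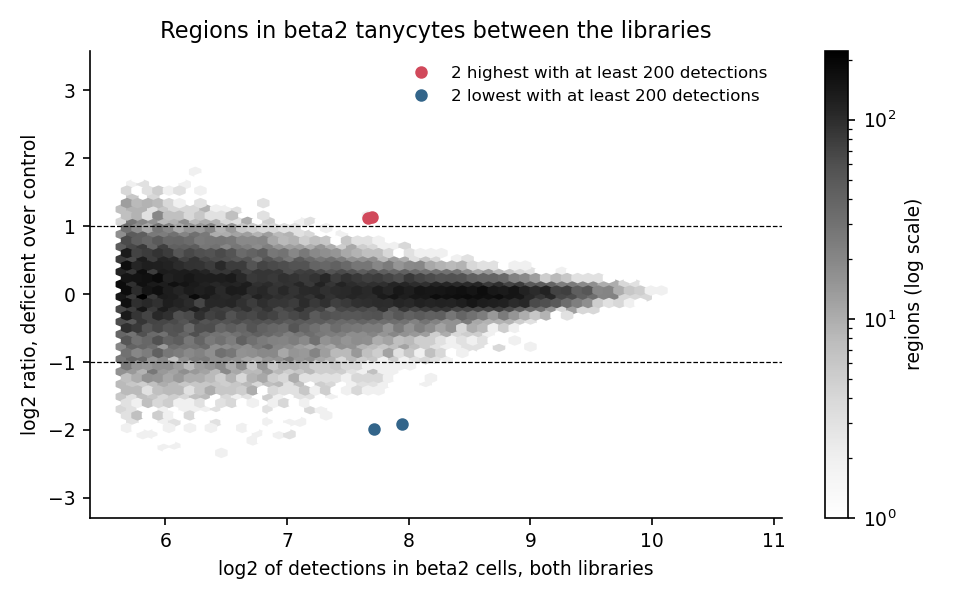
Log2 ratio of deficient over control (vertical axis) against the log2 of detections in beta2 cells of both libraries (horizontal axis) for 46195 regions, shaded by the number of regions on a log scale, with dashed lines at 2-fold. Points mark the 2 highest and the 2 lowest regions with at least 200 detections; above that depth 68 regions lie at or below the lower line and 2 at or above the upper one.

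The lowest ratio among well-covered regions was that of region 31746. It was found in 173 of 904 control and 37 of 1003 deficient beta2 cells, or 35.2 (30.1 to 40.8) and 8.18 (5.76 to 11.3) per 1000000, a log2 ratio of -1.98. Region 98760 was found in 201 control and 46 deficient beta2 cells, or 40.9 (35.4 to 46.9) and 10.2 (7.44 to 13.6) per 1000000, a log2 ratio of -1.91. Neither was particular to beta2 cells: in the pooled alpha1, alpha2 and beta1 cells region 31746 was at 37.6 in control and 10.7 in deficient cells per 1000000, and region 98760 at 50.9 and 17.8. Both were also lower in all 8 other types of the deficient library, least in astrocytes (-0.36) and ependymal cells (-0.15) respectively. The interval of this ratio included 0 in astrocytes for both regions, and in ependymal cells for region 98760.

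The highest ratios among well-covered regions were those of regions 19015 and 88564. Region 88564 was found in 66 control and 137 deficient beta2 cells, or 13.4 (10.4 to 17.1) and 30.3 (25.4 to 35.8) per 1000000, a log2 ratio of 1.12. It was higher in all 8 other types as well, with 8.45 and 22.8 per 1000000 in the pooled other tanycytes. In proliferating cells and astrocytes the interval of the ratio of region 88564 included 0. Region 19015 was found in 67 control and 141 deficient beta2 cells, or 13.6 (10.6 to 17.3) and 31.2 (26.2 to 36.8) per 1000000, a log2 ratio of 1.14. In the pooled other tanycytes it was at 14.1 (12.9 to 15.3) and 15.7 (14.5 to 17.0), a log2 ratio of 0.15. With a pseudocount of 5 the log2 ratios of the 2 regions (19015 first) were 0.96 and 0.94, just short of 2-fold, and in cells thinned to 2000 detections they were 1.74 and 1.94.

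The other tanycytes of the same libraries also had more lower than higher regions. In the pooled alpha1, alpha2 and beta1 cells 2444 of 107073 regions were lower by 2-fold or more (2.28%) and 910 higher (0.85%), and in alpha2 cells alone 3134 were lower (2.97%) and 1212 higher (1.15%). These comparisons share their 2 libraries with that of beta2 cells, so their values for the regions picked in beta2 cells are given side by side and are no independent support. The 1326 regions lower in beta2 cells had a median log2 ratio of -1.23 there, -0.98 in the pool, -1.06 in alpha2, -0.91 in alpha1 and -0.88 in beta1 cells. The 479 higher regions had a median of 1.14 in beta2 cells, 0.57 in the pool, 0.59 in alpha2, 0.80 in alpha1 and 0.59 in beta1 cells, each subtype over the regions with at least 50 detections in it. Regions picked by their value in beta2 cells have their most extreme values there by that choice, so the smaller medians elsewhere show no stronger difference in beta2 cells.

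The 500 beta2 regions had to stand out in both libraries to be chosen, so the choice itself limits how far they can differ between the genotypes, and their values are given as a description only. Of the 500, 375 had at least 50 detections in measured beta2 cells and the rest too few, and 7 of the 375 were lower and 4 higher by 2-fold or more, with a median log2 ratio of -0.03. Over all 26181 regions tested in these cells the median was -0.01, with 2.31% lower and 0.512% higher. The sets of alpha1 tanycytes and astrocytes had lower medians: of 103 alpha1 regions tested in beta2 cells 14 were lower by 2-fold or more and none higher, with a median of -0.28, and of 173 astrocyte regions 10 were lower and 1 higher, with a median of -0.25. Of 303 OPC regions 14 were lower and none higher, with a median of -0.02.

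As a set chosen in this way, the beta2 regions were lower in the deficient library by a log2 ratio of -0.06 (-0.09 to -0.03) in beta2 cells. In other tanycytes the same regions had -0.11 (-0.15 to -0.07) in beta1, -0.21 (-0.31 to -0.11) in alpha1 and -0.31 (-0.34 to -0.28) in alpha2 cells. Beta2 cells were 4.74 times above alpha2 cells in this set in the control and 5.63 times in the deficient library. The interval included 0 in ependymal cells and OPCs. The value in beta2 cells depended on how the set was chosen, at -0.092 for a set from the control library alone and -0.00046 for a set from the deficient library alone. Sets of other types in beta2 cells had a log2 ratio of -0.10 (-0.14 to -0.06) for beta1, -0.25 (-0.29 to -0.21) for alpha1, 0.07 (0.0036 to 0.14) for alpha2 and 0.56 (0.47 to 0.66) for neuron regions. Neuron regions were thus higher in deficient beta2 cells, yet at 0.915 of every 1000 detections they were lowest in beta2 cells of all 9 types, with an interval that overlapped that of alpha1 cells. They were higher in the deficient library in all 8 types other than neurons, with log2 ratios from 0.28 to 0.61, and in neurons the ratio was -0.43. Neurons made up 882 of 8948 control and 2520 of 13337 deficient cells, and their part in this difference was not tested.

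Regions in which the genotype difference of beta2 cells departed from that of the other tanycytes were few and thinly covered. The log2 ratio in beta2 cells exceeded that in the pooled alpha1, alpha2 and beta1 cells by 1 or more in 118 of 46189 regions (0.255%) and fell short of it by 1 or more in 101 (0.219%). Of regions with at least 200 detections in beta2 cells, none departed by that much in either direction. With median-of-ratios scaling, which centres each comparison on its median region, the numbers were 200 and 57, so the balance of directions (53.9% higher by all detections, 77.8% with this scaling) depended on the scaling. The difference between subtypes has no test here, since each genotype had 1 library.

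The well-covered regions nearest to such a departure had log2 ratios that differed by under 1 between beta2 cells and the pool. Region 49871 was at 44.1 (38.5 to 50.4) per 1000000 in control and 40.9 (35.2 to 47.2) in deficient beta2 cells, a log2 ratio of -0.11. In beta1 cells it was at 41.8 (37.3 to 46.8) and 22.4 (19.6 to 25.6), and in the pooled other tanycytes at 27.4 and 12.5, a log2 ratio of -1.07. All 8 other types had a lower level of it in the deficient library, with log2 ratios from -0.87 in beta1 to -2.74 in proliferating cells. The intervals of beta2 cells overlapped between the genotypes. Beta2 cells had the highest level of region 49871 in both libraries, with an interval that overlapped those of beta1, alpha1, proliferating and ependymal cells among controls and of no type among deficient cells. Region 19015, described above, was the other region of this direction, and in beta1 cells it was at 23.1 (control) and 23.3 (deficient).

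In the opposite direction, region 56260 was found in 426 of 904 control and 136 of 1003 deficient beta2 cells, or 86.6 (78.6 to 95.3) and 30.1 (25.2 to 35.6) per 1000000, a log2 ratio of -1.50. The pooled other tanycytes had 69.4 (66.8 to 72.1) and 42.9 (40.9 to 45.0), a log2 ratio of -0.68. In this region beta2 cells had the highest level of the tanycyte subtypes in the control library, with an interval that overlapped those of beta1, alpha1 and proliferating cells. In the deficient library they had the lowest level of all 9 types, with an interval that overlapped those of alpha1, proliferating and ependymal cells, astrocytes and OPCs, so this rank is not firm. Region 30967 was at 31.1 (26.4 to 36.5) and 22.5 (18.4 to 27.4) in beta2 cells, a log2 ratio of -0.45, against 16.7 (15.5 to 18.1) and 23.6 (22.1 to 25.2) in the pooled other tanycytes, a log2 ratio of 0.47. Region 30967 was thus higher in beta2 cells than in the pool among controls, and the intervals overlapped among deficient cells. The differences of log2 ratios were 0.97 for region 49871, 0.99 for region 19015, -0.81 for region 56260 and -0.92 for region 30967. Over the alternatives they ranged from 0.68 to 1.04 for region 49871, from 0.84 to 1.64 for region 19015, from -0.74 to -0.76 for region 56260 and from -0.79 to -1.01 for region 30967, so for 3 of the 4 the side of the threshold of 1 depended on the processing.

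**Figure D5:**
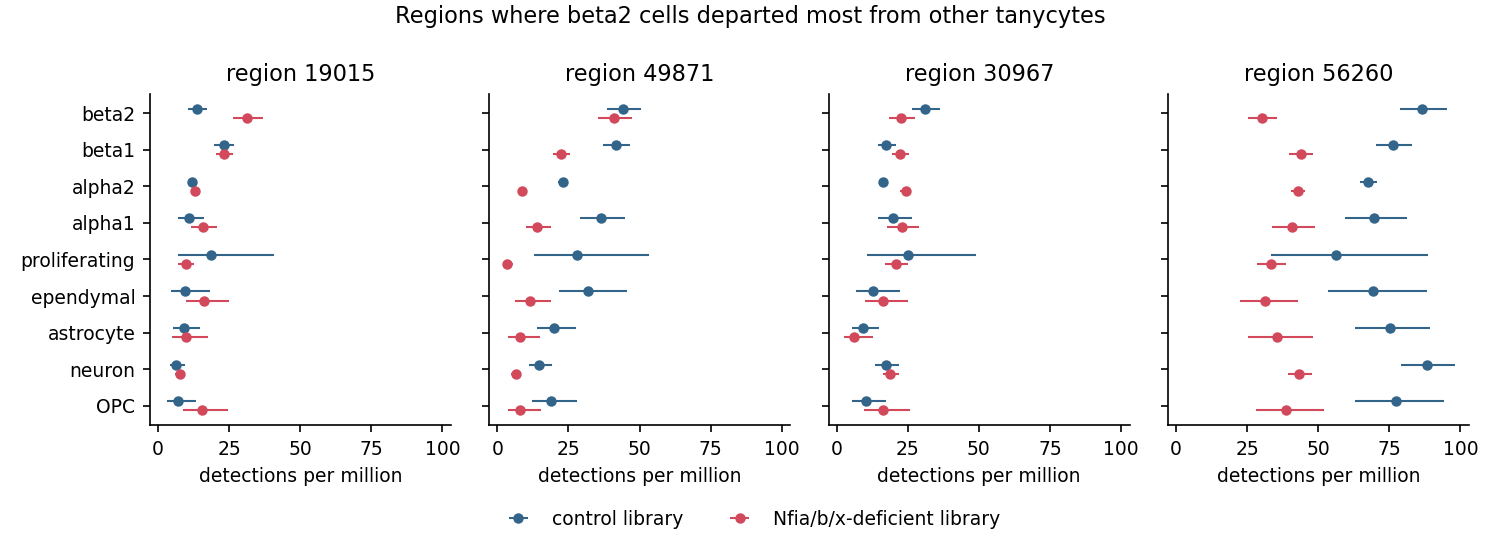
Detections per 1000000 detections (horizontal axis) of the 4 regions with at least 200 detections in which beta2 cells departed most from other tanycytes, in each cell type (vertical axis) of the control and the Nfia/b/x-deficient library, with exact 95% Poisson intervals for counting error. For region 49871 the beta2 points overlap at 44.1 and 40.9 while the points of alpha2 and beta1 cells are apart; for region 56260 the beta2 points are farthest apart of the tanycyte subtypes, at 86.6 and 30.1.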

How the data were processed

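Per the labels' protocols, reads were processed with Cell Ranger ATAC 1.1.0 at default parameters. The submitters' processing notes name mm10, Cell Ranger 3.1, Signac 0.2.5, Seurat and MACS2 without their roles; how regions were called, cells filtered, doublets treated and types named are not stated there. The values the authors deposited are presence or absence of a region in a cell, with no other unit, and the matrix columns were read as following the annotation lines. No doublet caller was run; leaving out the deepest 5% of cells was an alternative. The members and lists were chosen with earlier results of these data known.

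Detections were summed per type and library and set against the total of those cells. Named regions are, by rule, the 2 highest and 2 lowest with at least 200 detections in the cells compared, for beta2 against all other cells and against beta1 (by the smaller of both libraries' ratios), for deficient against control, and for the departure from other tanycytes. Named regions were picked and measured in the same cells, and their intervals take no account of the picking. Sets held up to 500 regions (56 for ependymal cells and 257 for astrocytes), with a ranking ratio of at least 0.5. Shares have Clopper-Pearson, sums Poisson, ratios of sums conditional binomial and ratios of cell numbers conditional odds-ratio intervals. The code was tested on simulated data. The tools were Python 3.11.15, matplotlib 3.10.9, pandas 2.3.3, scipy 1.17.1 and numpy 2.4.6.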

Additional observations from a re-analysis of the deposited data

How the results depend on the processing

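No paired analysis was possible because each genotype had 1 library, and for the same reason no replicate could be left out. For the genotype comparison in beta2 cells, higher and lower regions numbered 36 and 346 with a pseudocount of 5, 2 and 68 with at least 200 detections, 3632 and 3321 with no minimum, and 102 and 385 in cells thinned to 2000 detections. For beta2 against beta1 cells the control library gave 638 and 895 with a pseudocount of 5, 138 and 472 with at least 200 detections, 4508 and 8043 with no minimum and 777 and 1647 in thinned cells. The deficient library gave 687 and 1088, 172 and 730, 4523 and 8892, and 1057 and 2571 in the same order. Departures from other tanycytes numbered 4 higher and 0 lower with a pseudocount of 5, 0 and 0 with at least 200 detections, 1546 and 1257 with no minimum, and 200 and 57 with median-of-ratios scaling. Thinning gave 70 higher and 98 lower departures, and equal weights for the 3 subtypes 171 and 169. The log2 ratio of the beta2 set in beta2 cells was -0.092 for a set from the control library, -0.00046 for one from the deficient library and -0.10 in thinned cells. The fewer regions tested in thinned cells (20507 in place of 46195 between genotypes) lower those numbers by construction. Leaving out the deepest 5% of cells, or cells whose barcode is in both libraries, kept the numbers of regions within 1.5 times and was not run for the level of the beta2 set; both were added after seeing the data, as was the equal weighting. The log2 ratio of beta2 cells per other tanycytes was -0.19, and -0.23, -0.22 and -0.12 in cells with at least 2000 detections, without the deepest cells and with reassigned types. No named region changed direction.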
